A study of Mus musculus with 130 samples.

Results

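Kinesin genes were compared between single 2-cell mouse embryos cultured with SR1848 and embryos cultured with its solvent. The genes were chosen by symbol from the authors' table: Kif followed by a number with or without a letter from a to c, Kifc followed by a number, and Klc followed by a number. The rule found 48 genes of 36161. By their known roles 16 were counted as mitotic kinesins, 19 as transport kinesins, among them the light chains Klc1 to Klc4, and 12 as kinesins of cilia, signalling or microtubule length. The remaining gene, Kifc5c-ps, whose symbol marks a pseudogene, has no class.

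Kinesins are motor proteins that use ATP to walk along microtubules or to shorten them. Mitotic kinesins build the spindle, move chromosomes and complete cell division, and many of their genes are transcribed mainly in the G2 phase and mitosis. Transport kinesins carry vesicles, organelles and RNA, often through adaptors or light chains. The cleaving mouse embryo divides with spindles that form without centrioles, first on messages stored in the egg and then on newly transcribed ones.

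The SR1848 embryos came from the B6129F1 strain, were isolated as zygotes 5 hours after fertilization, and were kept in KSOM medium with 10 µM SR1848 from 6 hours on (80 embryos). The control embryos had the same strain, isolation and start, with 0.1% DMSO (50 embryos, marked NT in their titles). The compound SR1848 serves to block Nr5a2, an orphan nuclear receptor. All embryos of both groups were cultured in wet chambers without an oil overlay, and the labels give the stage as 2 cells. Each embryo was 1 Smart-seq2 library primed with oligo-dT, and total estimated counts per library ran from 2730852 to 7824458 with SR1848 and from 3173683 to 8438537 with DMSO. The labels do not link embryos to a female, a culture drop or a sequencing plate. What the p-values measure is hence the scatter among these embryos, and any step that all embryos of 1 group went through together cannot be told apart from the compound. In a whole embryo, fewer cells and less RNA per cell cannot be told apart.

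Markers of the stage were present: 13 of 14 listed 2-cell-stage genes were measured. Their summed level ran from 262 to 5625 CPM with SR1848 and from 108 to 684 CPM with DMSO. All 13 rose (edgeR adjusted p under 0.05), as did 45.6% of all genes tested. Levels are in CPM, estimated counts per 1000000 of library size, where library sizes were scaled by the trimmed mean of M-values (TMM). The 10 cumulus and granulosa markers summed to between 1.98 and 271 CPM with SR1848 and between 26.8 and 93.6 CPM with DMSO. Amhr2 gave the most of that at the median, 16.2 CPM with SR1848 and 43.6 CPM with DMSO, Inha reached 238 CPM in an SR1848 embryo and was 0 in all DMSO embryos, and the granulosa factor Foxl2 had no count in 68 of 80 SR1848 and 49 of 50 DMSO embryos. The 7 sperm markers summed to at most 12.1 CPM with SR1848 and 3.81 CPM with DMSO, and Smcp had no count in any embryo. The 6 blood markers summed to 59.5 to 673 CPM with SR1848 and 6.21 to 132 CPM with DMSO, nearly all on the alpha-globin genes Hba-a1 and Hba-a2, while the beta-globin gene Hbb-bt had no count in any embryo and Hbb-bs had counts in 1. The part of these markers in the kinesin results was not tested.

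Of the 48 genes, 36 had enough counts to be tested. With SR1848, 15 of these fell and 13 rose at an adjusted p under 0.05, and 8 did not pass (edgeR's quasi-likelihood test, Benjamini-Hochberg over 13224 genes). Over all genes tested 36.5% fell and 45.6% rose, 82.1% in all, so the family as a whole was called about as often as any other gene. The median log2 fold change of the 36 was -0.15, against 0.24 for all genes, and it was 0.066 with upper-quartile factors. Of 15 mitotic kinesins tested 10 fell and 4 rose, of 15 transport kinesins 4 fell and 5 rose, and of the 6 others 1 fell and 4 rose. With scaling to oocyte transcripts 8 transport kinesins fell and 2 rose, and 6 kinesins rose in all. That scaling called 6160 of all 13224 genes lower and 3597 higher. Falls of at least 2-fold were seen in 8 mitotic kinesins, 3 transport kinesins and 0 others, where 25.8% of all genes fell that far. The mitotic median was -1.09 and stayed below 0 with each scaling tried (-1.66 to -0.86), while the transport median of 0.0042 turned to -0.10 with RLE factors, -0.18 with total counts and -0.44 with oocyte-transcript factors. Scaling moved all genes: their median was -0.31 with oocyte-transcript factors and 0.46 with upper-quartile factors, and 36.9% of the called genes were higher with the first of these, against 55.5% with TMM.

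**Figure D1:**
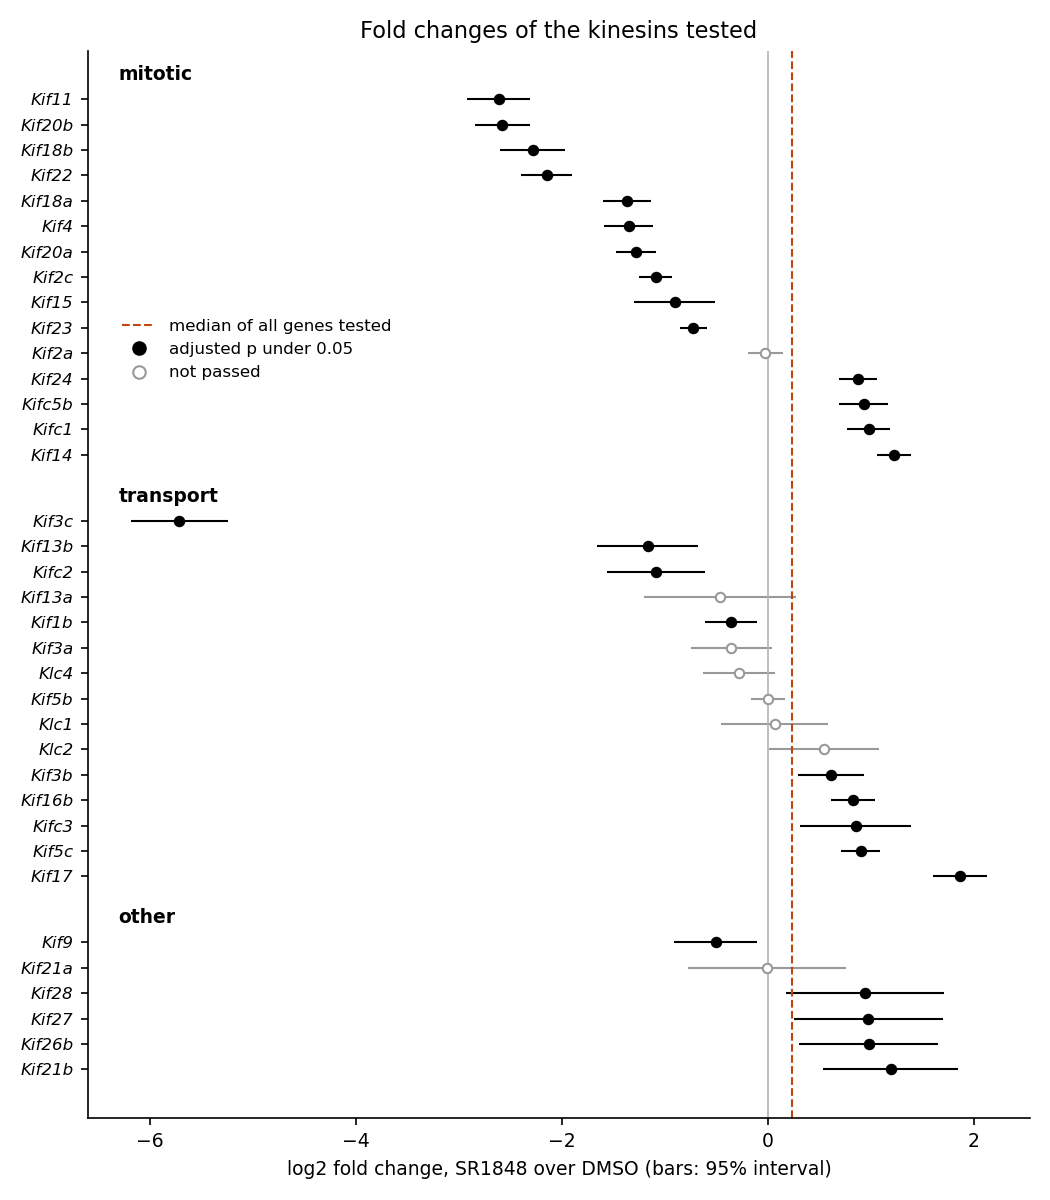
Log2 fold change (SR1848 over DMSO, x axis) of the 36 kinesins tested, by class, with bars of the 95% interval; filled points passed at an adjusted p under 0.05 and the dashed line is the median of all genes tested (0.24). Kif3c lies far to the left at -5.71, the 10 mitotic kinesins that passed as lower lie left of 0, and Kif17 lies farthest right at 1.87.

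The starts of these genes are shown first, since many of the mitotic ones hold the same letters there. RefSeq promoter windows (build GRCm38.p6, 250 bases before to 50 after the start) were found for 36 of the 48 genes. CAAGGNCA, the core of the site that Nr5a2 binds, was in 0 of 36 of these windows on either strand, and in 6.71% of 32851 windows of all genes. TTTGAA, which reads TTCAAA on the other strand, has the letters of the cell cycle genes homology region found in many mitotic promoters. It was in 11 of 15 mitotic windows, 1 of 13 transport windows and 2 of 8 of the others, against 17.9% of all windows. It was in 8 of 9 windows of mitotic kinesins that fell and in 3 of 4 of those that rose. CCAAT, which reads ATTGG on the other strand, has the letters that NF-Y binds. It was in 10 of 15, 5 of 13 and 3 of 8 windows of the classes in that order, against 37.4% of all. TTTAAA, which is its own reverse complement, was in 2 of 15 mitotic windows, against 13.2%. Each motif was counted on its own whether or not it touched another, and all of these searches but the first were added after the fold changes were seen. A match is a description of letters and not a measured site.

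The windows below run 5′ to 3′ on the strand of the gene, from 70 bases before the RefSeq start to 30 bases after it, with TTTGAA in capitals wherever it stands on either strand, and likewise CCAAT. The first 6 belong to mitotic kinesins that fell and place TTTGAA within 20 bases of the start. Nearness of the motif did not go with direction throughout: Kifc1 rose with TTTGAA right after its start, and Kif18a fell without it in its window of 300 bases. Of Kif14 and Kif17, which rose, and Kif3c, which fell, no window shown holds either motif. Farther out, Kif14 has TTTGAA 228 bases and CCAAT 92 bases before its RefSeq start, and it counts among those with the motifs above. Kif17 and Kif3c hold neither in their windows of 300 bases. The windows lie at chr19:37376312-37376411 (plus strand) for Kif11, chr19:34922288-34922387 (plus strand) for Kif20b, chr11:102925095-102925194 (minus strand) for Kif18b, chr7:127042391-127042490 (minus strand) for Kif22, chr9:61946770-61946869 (minus strand) for Kif23, chrX:100625995-100626094 (plus strand) for Kif4, chr17:33890604-33890703 (minus strand) for Kifc1, chr2:109280668-109280767 (plus strand) for Kif18a, chr1:136467778-136467877 (plus strand) for Kif14, chr4:138262181-138262280 (plus strand) for Kif17 and chr12:3365062-3365161 (plus strand) for Kif3c. These starts are those of RefSeq and not always of the counted transcripts. Kif2c, whose window is not shown, is among the mitotic kinesins that fell with TTTGAA in the window. Its transcript Kif2c-201, with 95.5% of Kif2c counts with SR1848 and 98.0% with DMSO, starts 3867 bases upstream of the RefSeq start. Kif4-201, with 99.4% of Kif4 counts with SR1848 and 99.7% with DMSO, starts 328 bases upstream, and a large part of the counts of Kifc1, Kif14, Kif17 and Kif3c lay on transcripts that start elsewhere, as given with the transcripts.
Kif11: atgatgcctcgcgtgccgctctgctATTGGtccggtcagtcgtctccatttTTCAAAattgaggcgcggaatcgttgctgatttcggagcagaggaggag
Kif20b: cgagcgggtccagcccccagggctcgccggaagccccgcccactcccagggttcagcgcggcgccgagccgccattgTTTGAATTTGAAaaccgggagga
Kif18b: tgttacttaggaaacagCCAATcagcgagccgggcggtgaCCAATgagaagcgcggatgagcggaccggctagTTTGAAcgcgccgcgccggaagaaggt
Kif22: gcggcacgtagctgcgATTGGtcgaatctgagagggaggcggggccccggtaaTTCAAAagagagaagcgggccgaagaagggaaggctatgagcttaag
Kif23: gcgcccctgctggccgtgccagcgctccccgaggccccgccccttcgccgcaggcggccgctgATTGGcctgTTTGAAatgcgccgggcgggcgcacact
Kif4: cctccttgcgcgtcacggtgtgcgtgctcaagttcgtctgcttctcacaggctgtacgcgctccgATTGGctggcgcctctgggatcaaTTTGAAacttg
Kifc1: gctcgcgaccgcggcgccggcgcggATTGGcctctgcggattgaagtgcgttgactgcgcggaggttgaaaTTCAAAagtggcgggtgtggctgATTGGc
Kif18a: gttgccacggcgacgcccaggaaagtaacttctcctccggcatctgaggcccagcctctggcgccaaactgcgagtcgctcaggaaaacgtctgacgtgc
Kif14: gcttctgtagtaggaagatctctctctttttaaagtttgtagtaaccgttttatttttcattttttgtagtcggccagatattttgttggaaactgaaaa
Kif17: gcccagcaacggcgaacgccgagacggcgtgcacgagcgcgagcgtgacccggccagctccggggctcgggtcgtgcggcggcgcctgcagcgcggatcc
Kif3c: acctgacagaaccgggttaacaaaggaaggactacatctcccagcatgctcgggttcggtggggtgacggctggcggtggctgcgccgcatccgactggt

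Motors of spindle pole separation were lower with SR1848. Kif11 (chromosome 19, 37376403 to 37421859, plus strand, in GENCODE M21 on mm10), the motor that slides antiparallel microtubules apart so that the poles separate, had 2.25, 20.7 and 79.9 CPM in the lowest, median and highest SR1848 embryo, against 67.3, 146 and 314 CPM in the DMSO embryos. Sets of 3 CPM values after a gene name are given in that order throughout. All 80 SR1848 embryos lay below the DMSO median and 76 lay below every DMSO embryo. Kif11 was 6.12-fold lower (log2 scale: -2.61 with SE 0.157, edgeR adjusted p = 4.65e-33). Kif15, which can help to hold the poles apart, fell as well, at low levels, to 6.26 ± 5.50 against 11.7 ± 6.08 CPM (SD, n = 80 and 50, log2 fold change -0.90, edgeR adjusted p = 2.76e-05), and the groups overlapped widely.

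Chromokinesins, which ride on chromosome arms and push them toward the middle of the spindle, also fell. Kif22, the mitotic kinesin with the highest level per length in DMSO embryos, had 12.7, 94.2 and 261 CPM with SR1848, against 155, 448 and 886 CPM with DMSO, and 66 of 80 SR1848 embryos were below every DMSO embryo. It was 4.43-fold lower (log2 scale: -2.15 with SE 0.124, edgeR adjusted p = 1.39e-34). Kif4, which with Prc1 also sets the length of the central spindle, had 8.72, 58.8 and 138 CPM with SR1848, against 68.1, 147 and 328 CPM with DMSO, and 51 SR1848 embryos were below every DMSO embryo. It was 2.55-fold lower (log2 scale: -1.35 with SE 0.122, edgeR adjusted p = 6.84e-20). Kif4 overlaps the gene Pdzd11 on the opposite strand over 16.7% of its exon bases, and Smart-seq2 reads carry no strand, so part of its counts is uncertain.

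Motors that restrain microtubule plus ends were lower. Kif18a, which dampens the swinging of chromosomes, had 14.6, 82.2 and 191 CPM with SR1848, against 82.03, 214 and 459 CPM with DMSO, and was 2.58-fold lower (log2 scale: -1.37 with SE 0.120, edgeR adjusted p = 9.54e-21). Kif18b, which trims the astral microtubules, had 0.949, 9.95 and 44.7 CPM with SR1848, against 13.1, 51.8 and 102 CPM with DMSO, and was 4.87-fold lower (log2 scale: -2.28 with SE 0.161, edgeR adjusted p = 2.48e-27). For both genes all 80 SR1848 embryos lay below the DMSO median, and 39 and 57 lay below every DMSO embryo.

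Among the kinesins that only shorten microtubules, Kif2c, which frees wrongly attached kinetochores, had 44.4, 123 and 221 CPM with SR1848, against 85.4, 247 and 535 CPM with DMSO. It was 2.13-fold lower (log2 scale: -1.09 with SE 0.0814, edgeR adjusted p = 1.86e-25), with all 80 SR1848 embryos below the DMSO median but only 11 below every DMSO embryo. Its relative Kif2a, which acts at the spindle poles, had 29.9, 105 and 197 CPM with SR1848, against 46.4, 103 and 179 CPM with DMSO. These ranges overlap nearly whole, and Kif2a did not pass (log2 fold change -0.022, 95% interval -0.19 to 0.14, edgeR adjusted p = 0.81). Its call depended on the scaling: it passed as lower with total counts (-0.22) and oocyte-transcript factors (-0.60) and as higher with upper-quartile factors (0.20). The gene Dimt1 overlaps 23.2% of the exon bases of Kif2a-201. Kif24, a member of the same group that acts on centrioles, rose to 44.8 ± 15.2 CPM, against 24.5 ± 7.15 CPM with DMSO (SD, n = 80 and 50), 1.83-fold higher (log2 scale: 0.87 with SE 0.0940, edgeR adjusted p = 1.58e-15). Kif2b had counts in 2 of 80 SR1848 and 3 of 50 DMSO embryos and was not tested.

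Of the motors of cell division proper, 3 fell and 1 rose. Kif20b, a motor of the midbody, had 5.14, 25.2 and 86.8 CPM with SR1848, against 54.1, 165 and 393 CPM with DMSO, and was 5.96-fold lower (log2 scale: -2.58 with SE 0.136, edgeR adjusted p = 2.08e-38). Kif20a, which takes the chromosomal passenger complex to the central spindle, had 31.996, 132 and 356 CPM with SR1848, against 136, 316 and 578 CPM with DMSO, and was 2.43-fold lower (log2 scale: -1.28 with SE 0.0971, edgeR adjusted p = 5.26e-25). Between 46 (Kif20a) and 74 (Kif20b) of the 80 SR1848 embryos were below every DMSO embryo. Kif20a overlaps Cdc23 on the opposite strand over 26.4% of the exon bases of its leading transcript, so that its counts are in part uncertain, and Cdc23 itself was lower (log2 fold change -1.74). Kif23, which with Racgap1 forms centralspindlin, had 76.4, 146 and 223 CPM with SR1848, against 124, 239 and 413 CPM with DMSO. Its groups overlap more, but all 80 SR1848 embryos lay below the DMSO median, and it was 1.65-fold lower (log2 scale: -0.72 with SE 0.0678, edgeR adjusted p = 6.91e-19).

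Kif14 (chromosome 1, 136466343 to 136531511, plus strand), which works with citron kinase in the midbody, ran against these. It had 65.4, 142 and 298 CPM with SR1848, against 21.9, 60.8 and 117 CPM with DMSO. All 80 SR1848 embryos lay above the DMSO median and 63 above every DMSO embryo. Kif14 was 2.33-fold higher (log2 scale: 1.22 with SE 0.0850, edgeR adjusted p = 6.80e-28), and kept that call with each scaling tried. The transcripts behind the rise are given further on.

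The minus-end motor Kifc1, which bundles microtubules into poles where centrioles are lacking, and its near copy Kifc5b rose. Kifc1 stood at 21.5 ± 6.26 against 10.9 ± 4.93 CPM (SD, n = 80 and 50, log2 fold change 0.98, edgeR adjusted p = 3.14e-15) and Kifc5b at 13.3 ± 5.75 against 6.96 ± 3.06 CPM (0.93, edgeR adjusted p = 7.61e-12). The genes share sequence: 47.1% of the 31-base words of the leading Kifc1 transcript and 54.98% of those of Kifc5b occur in other genes, mostly in each other, so the division of reads between them is uncertain. The higher group is the same for both.

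**Figure D2:**
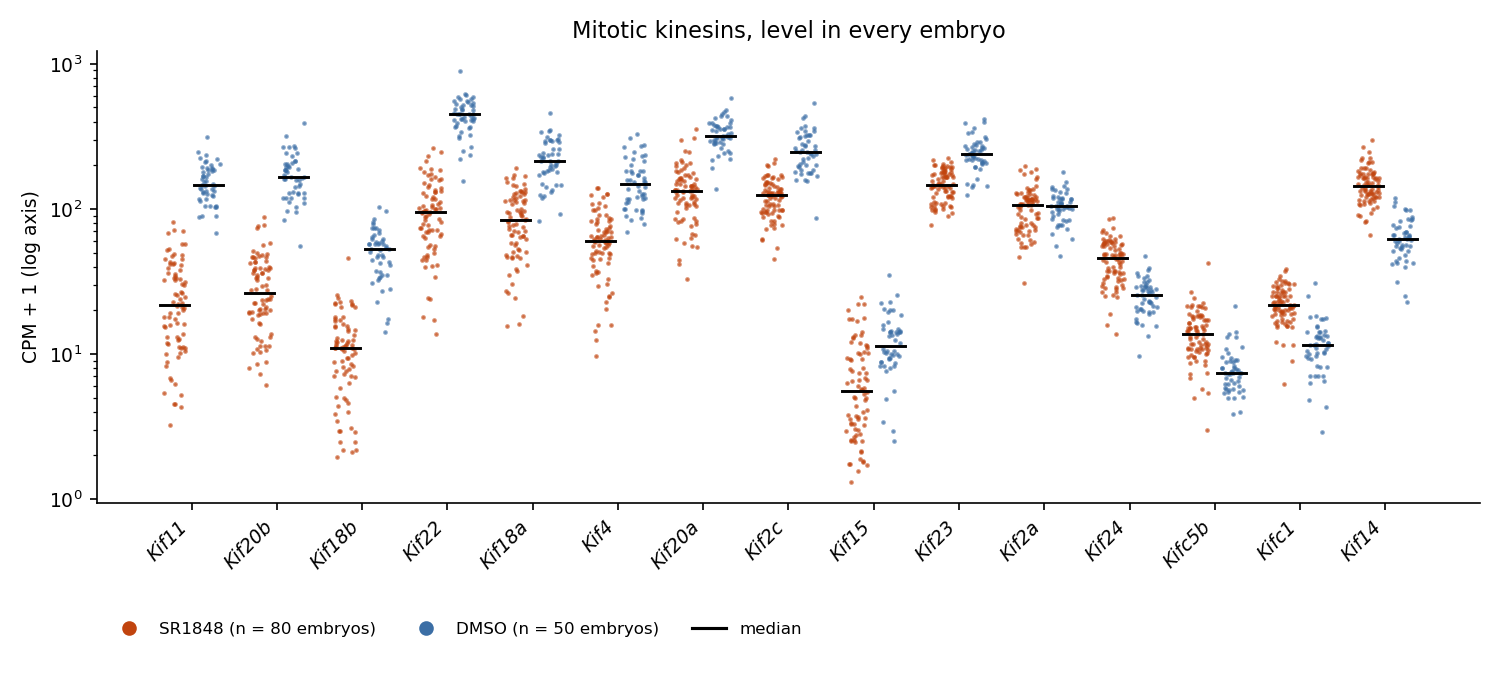
CPM + 1 on a log axis for the 15 mitotic kinesins tested, 1 point per embryo, SR1848 (n = 80) left of DMSO (n = 50), with black bars for medians. From Kif11 to Kif23 the SR1848 cloud lies lower, Kif2a has medians of 105 and 103 CPM and a call that depends on the scaling, and from Kif24 to Kif14 the SR1848 cloud lies higher.

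Most partners of the mitotic kinesins were lower too. Of 26 listed spindle, kinetochore and midzone genes, all tested, 20 fell and 5 rose (median log2 fold change -1.19). That is 76.9% lower and 19.2% higher, against 36.5% and 45.6% of all genes tested. With oocyte-transcript factors 21 of the 26 fell and 2 rose, where 6160 of all 13224 genes fell and 3597 rose. The 5 that rose with TMM were Birc5 (log2 fold change 0.42), Numa1 (0.57), Nuf2 (0.98), Psrc1 (1.72) and Cit (1.08). Tpx2, which nucleates spindle microtubules and binds Kif11 and Kif15, had 10.9, 66.7 and 128 CPM with SR1848, against 222, 417 and 789.9 CPM with DMSO, so the groups did not overlap, as in 1.71% of all genes tested. It was 6.92-fold lower (log2 fold change -2.79, edgeR adjusted p = 8.13e-59). Nusap1, a microtubule bundler chosen after its values were seen, was the other partner without overlap (log2 fold change -2.83). The kinetochore gene Spc25 had 14.8, 66.8 and 133 CPM with SR1848, against 132, 338 and 701 CPM with DMSO, and the groups nearly parted (log2 fold change -2.40, edgeR adjusted p = 1.19e-51). Tacc3, which strengthens the kinetochore fibres, had 5.48, 37.1 and 106 CPM with SR1848, against 103, 259 and 625 CPM with DMSO (log2 fold change -2.76, edgeR adjusted p = 2.23e-47). Kpna2, an importin that also holds spindle factors until mitosis and had the highest CPM of the list, showed 117, 583 and 1775 CPM with SR1848, against 611, 1476 and 3378 CPM with DMSO (log2 fold change -1.27, edgeR adjusted p = 5.77e-17). The groups overlapped for Kpna2 and barely for Tacc3.

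Of the genes for the heterotrimeric transport kinesins, Kif3c fell, Kif3a did not pass and Kif3b rose except with oocyte-transcript factors. In these motors Kif3a pairs with Kif3b or Kif3c, and Kifap3 links the pair to cargo, in cilia and in axons. Kif3c (chromosome 12, 3365132 to 3406494, plus strand) had 0, 3.53 and 17.1 CPM with SR1848, against 68.9, 197 and 529 CPM with DMSO. No SR1848 embryo reached the lowest DMSO embryo, and 11 of 80 had no Kif3c count, which at these depths allows up to 0.386 to 1.11 CPM per embryo (3 counts, counting error only). Kif3c was the only kinesin of the 36 without overlap between the groups, as in 1.71% of all genes tested, or 1.69% with SR1848 lower, and was 52.4-fold lower (log2 scale: -5.71 with SE 0.241, edgeR adjusted p = 5.59e-48). Its partner Kif3a stood at 11.3 ± 8.45 against 14.5 ± 7.19 CPM and did not pass (log2 fold change -0.35, 95% interval -0.75 to 0.042, edgeR adjusted p = 0.0962), although it passed as lower in 5 of the alternatives, among them RLE factors (-0.48), and was 0.53 when only its most abundant transcript was counted. Kif3b rose to 21.1 ± 10.5 CPM, against 13.8 ± 7.90 CPM (log2 scale: 0.61, edgeR adjusted p = 4.37e-04), but was -0.044 with oocyte-transcript factors. Kifap3, named here for its place in this complex, had medians of 0.201 and 1.82 CPM and did not pass (log2 fold change -0.41, edgeR adjusted p = 0.374).

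Per kilobase of transcript, Kif3c averaged 1.52 ± 1.36 CPM per kb with SR1848 and 80.003 ± 32.1 with DMSO (SD, n = 80 and 50). Kif3a averaged 6.51 ± 4.85 and 8.32 ± 4.12, and Kif3b 3.74 ± 1.86 and 2.44 ± 1.401, in the same order. On this scale Kif3c had the highest mean of the 3 genes in DMSO embryos and the lowest in SR1848 embryos. The DMSO rank rests on the short transcript Kif3c-204 described below, since the full-length Kif3c-201 alone averaged 0.0599 ± 0.172 CPM per kb with SR1848 and 2.78 ± 1.62 with DMSO, under Kif3a in both groups.

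Kif17 (chromosome 4, 138250435 to 138301967, plus strand), a motor of the same group that works as a homodimer and is known from dendrites, cilia and spermatids, had 46.3, 214 and 647 CPM with SR1848, against 16.98, 55.3 and 147 CPM with DMSO. Of the 80 SR1848 embryos 62 lay above every DMSO embryo and 79 above the DMSO median. Kif17 was 3.64-fold higher (log2 scale: 1.87 with SE 0.133, edgeR adjusted p = 5.58e-27), the largest fitted rise among the 36 kinesins.

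Conventional kinesin, a pair of Kif5 heavy chains with a pair of light chains, kept its main heavy chain within overlapping ranges. Kif5b, the heavy chain found in most tissues, had 153, 282 and 1064 CPM with SR1848, against 169, 292 and 663 CPM with DMSO, and did not pass (log2 fold change 0.0042, 95% interval -0.16 to 0.17, edgeR adjusted p = 0.966). Its call depended on the scaling: it passed as higher with upper-quartile factors (0.22) and as lower with oocyte-transcript factors (-0.44). Kif5c, best known from neurons, had 47.999, 112 and 273 CPM with SR1848, against 31.7, 62.3 and 106 CPM with DMSO, with 41 SR1848 embryos above every DMSO embryo, and was 1.87-fold higher (log2 scale: 0.90 with SE 0.0966, edgeR adjusted p = 1.07e-15). The light chains did not pass, with log2 fold changes of 0.067 for Klc1, 0.54 for Klc2 and -0.28 for Klc4 (edgeR adjusted p from 0.059 to 0.82). Their medians were between 2.27 and 11.1 CPM with SR1848 and between 2.25 and 14.6 CPM with DMSO.

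Kinesins of vesicles and endosomes split. Kif1b, a carrier of mitochondria and synaptic vesicle precursors, had 27.3, 79.2 and 364 CPM with SR1848, against 56.4, 121 and 297 CPM with DMSO, so the DMSO range lay within that of SR1848. It was 1.28-fold lower (log2 scale: -0.36 with SE 0.131, edgeR adjusted p = 0.00959), and the call ended with upper-quartile factors (-0.15). Kif13b, a vesicle motor, had 0, 3.11 and 30.1 CPM with SR1848, against 2.92, 13.1 and 38.7 CPM with DMSO, and 40 SR1848 embryos lay below every DMSO embryo while the rest overlapped the DMSO range. It was 2.24-fold lower (log2 scale: -1.16 with SE 0.250, edgeR adjusted p = 1.36e-05). Kif16b, which binds early endosomes through their lipids, had 15.9, 74.7 and 164 CPM with SR1848, against 10.98, 40.1 and 78.9 CPM with DMSO, and 36 SR1848 embryos lay above every DMSO embryo. It was 1.78-fold higher (log2 scale: 0.83 with SE 0.111, edgeR adjusted p = 2.22e-11), a call lost with oocyte-transcript factors (0.24). Kif13a, a relative of Kif13b, had medians of 1.44 and 3.64 CPM and did not pass (log2 fold change -0.46, edgeR adjusted p = 0.247).

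Both minus-end transport kinesins passed, in opposite directions. Kifc2, known from neurons, had 0, 3.84 and 28.2 CPM with SR1848, against 0.842, 9.32 and 34.7 CPM with DMSO, with wide overlap, and was 2.12-fold lower (log2 scale: -1.08 with SE 0.243, edgeR adjusted p = 2.95e-05). Kifc3 rose to 18.1 ± 17.7 CPM, against 9.99 ± 7.90 CPM (log2 scale: 0.85, edgeR adjusted p = 0.00337), and lost the call in 4 alternatives, among them limma-voom (0.43), so its rise is uncertain.

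**Figure D3:**
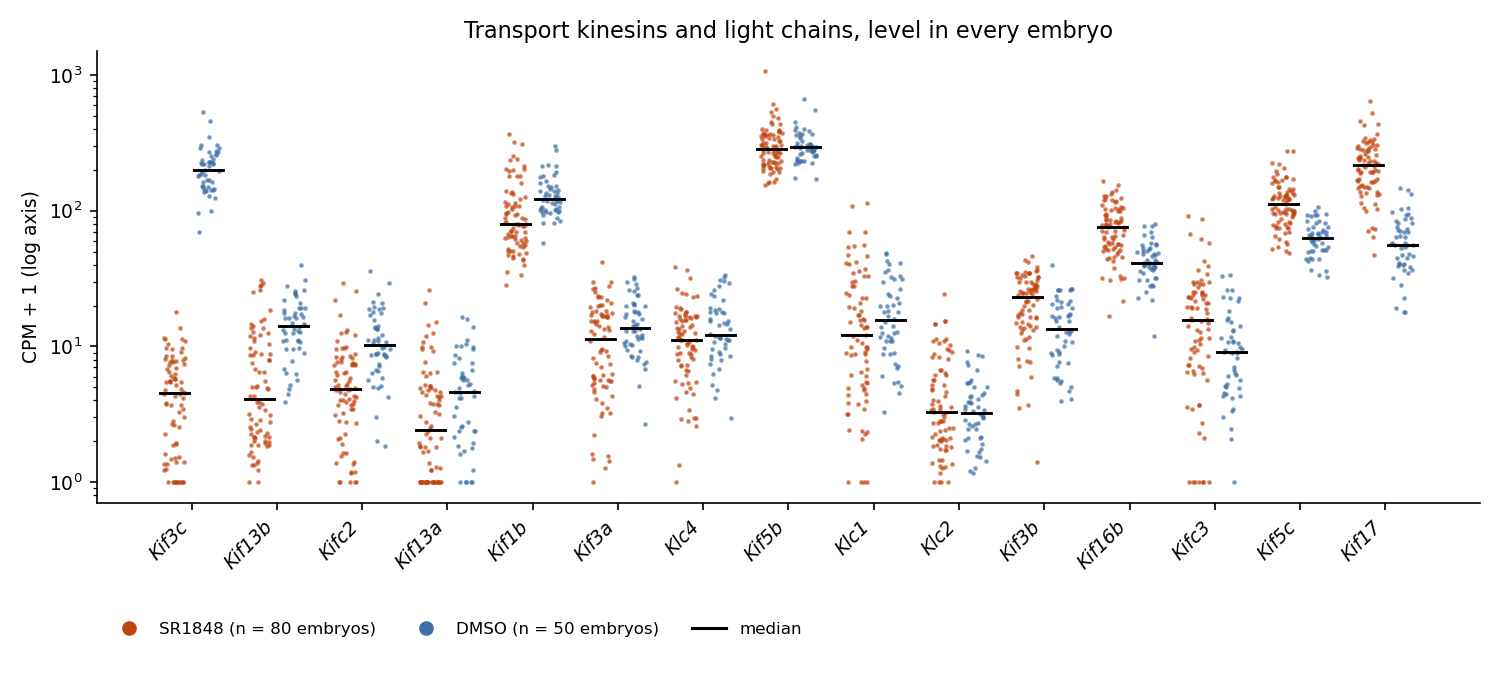
CPM + 1 on a log axis for the 15 transport kinesins and light chains tested, 1 point per embryo, SR1848 (n = 80) left of DMSO (n = 50), with black bars for medians. The Kif3c clouds are apart, with medians of 3.53 and 197 CPM, the Kif5b clouds lie side by side, and the Kif17 cloud is higher with SR1848.

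Adaptors that couple kinesins to cargo or tracks also went both ways. Of 24 listed symbols, 1 of which is an older name with no entry, 19 were tested, 8 fell and 7 rose (median log2 fold change 0.0095). That is 42.1% lower and 36.8% higher, not far from the 36.5% and 45.6% of all genes tested. Trak1 and Rhot1 tie Kif5 to mitochondria. Trak1 had 63.7, 126 and 281 CPM with SR1848, against 28.3, 56.4 and 97.9 CPM with DMSO (log2 fold change 1.28, edgeR adjusted p = 1.99e-29), and Rhot1, with the highest CPM of the list, had 146, 639.7 and 2747 CPM with SR1848, against 104, 267 and 645 CPM with DMSO (1.23, edgeR adjusted p = 1.56e-15). Borcs5, of the complex that links lysosomes to kinesins, had 52.2, 222 and 478 CPM with SR1848, against 31.1, 73.98 and 191 CPM with DMSO (1.53, edgeR adjusted p = 5.08e-29). Map7d2, of the microtubule proteins that recruit Kif5, fell: it had 0, 1.88 and 10.4 CPM with SR1848, against 4.41, 16.1 and 91.2 CPM with DMSO (-2.80, edgeR adjusted p = 5.57e-19). Each of these groups overlapped.

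Dynein, the motor that walks the other way, and its activator dynactin had 10 of 27 tested genes lower and 11 higher (median log2 fold change 0.37). These shares, 37.04% lower and 40.74% higher, lay near the 36.5% and 45.6% of all genes tested. The light intermediate chain Dync1li1 had 3.32, 33.1 and 105 CPM with SR1848, against 76.8, 134 and 308 CPM with DMSO (-1.91, edgeR adjusted p = 1.44e-28), and Spdl1, which brings dynein to kinetochores, had 12.2, 71.8 and 263 CPM with SR1848, against 135, 366 and 621 CPM with DMSO (-2.19, edgeR adjusted p = 2.24e-33). Hook2, a cargo adaptor of dynein, rose, with 24.1, 90.7 and 479 CPM under SR1848, against 8.63, 26.8 and 78.4 CPM with DMSO (2.14, edgeR adjusted p = 3.83e-23). Dynll1, with the highest CPM of the list, had 103, 339 and 805 CPM with SR1848, against 228, 451 and 617 CPM with DMSO (-0.33, edgeR adjusted p = 0.00301), a call lost with upper-quartile factors (-0.11). In all 4 genes the groups overlapped, most widely in Dynll1.

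Of 16 tubulin genes tested, whose products form the tracks, 5 fell and 10 rose with TMM (median log2 fold change 0.44), while 6 fell and 3 rose with oocyte-transcript factors. With TMM that is 31.25% lower and 62.5% higher, against 36.5% and 45.6% of all genes tested. Over all 13224 genes, oocyte-transcript factors gave 6160 lower and 3597 higher. Tubg2, a gamma-tubulin of the nucleating complex and the gene of highest CPM here, had 486, 945 and 1725 CPM with SR1848, against 159.8, 356 and 761 CPM with DMSO (1.35, edgeR adjusted p = 4.08e-32). Tubb2a had 184, 476 and 889 CPM with SR1848, against 50.8, 163 and 416 CPM with DMSO (1.51, edgeR adjusted p = 4.46e-28), and Tuba1b, an alpha-tubulin, had 3.12, 25.1 and 55.5 CPM with SR1848, against 25.1, 61.4 and 132 CPM with DMSO (-1.39, edgeR adjusted p = 1.67e-20). The groups overlapped in all 3 genes. Tubulin genes share sequence, so the split of reads between them is uncertain.

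The kinesins of cilia, signalling and microtubule length were scarce. Kif21b, which slows the growth of microtubules, had 0, 5.48 and 29.4 CPM with SR1848, against 0, 2.22 and 10.5 CPM with DMSO, with wide overlap. It was 2.29-fold higher (log2 scale: 1.19 with SE 0.333, edgeR adjusted p = 7.13e-04), a call lost with oocyte-transcript factors (0.68). Kif26b, a non-motile member linked to Wnt signalling, Kif27, linked to motile cilia, and Kif28 rose by log2 values of 0.98, 0.98 and 0.94 (edgeR adjusted p = 0.00713, 0.012 and 0.0222). With oocyte-transcript factors these were 0.37, 0.50 and 0.36 and none was called. Kif9, a motor of flagella, fell to 8.11 ± 5.72 CPM, against 11.5 ± 7.53 CPM (SD, n = 80 and 50, log2 fold change -0.51, edgeR adjusted p = 0.0192), and was not called with upper-quartile factors (-0.28). The direction turned when only its most abundant transcript was counted (0.16): Kif9-202 fell (-1.73, edgeR adjusted p = 9.51e-05), and Kif9-201 did not pass (0.083). Kif21a had medians of 1.33 and 1.64 CPM and did not pass (log2 fold change -0.01, 95% interval -0.78 to 0.76).

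The 12 genes not tested were Kif2b, Kif12, Kif19a, Kif19b, Kif26a, Kif6, Kif7, Kif1a, Kif1c, Kif5a, Klc3 and Kifc5c-ps. Their medians were at most 0.649 CPM with SR1848 and 1.95 CPM with DMSO. Some were detected unevenly: Klc3 had counts in 17 of 80 SR1848 embryos and 37 of 50 DMSO embryos, Kif19b in 13 and 35, and Kif6 in 31 and 40. Kifc5c-ps had counts in 45 SR1848 and 13 DMSO embryos. The DMSO libraries were deeper at the median, and these shares were not tested.

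The deposited table counts transcripts, so the kinesins were also read transcript by transcript, a choice made after the gene values were seen (25759 transcripts tested, of which 73.6% were called). Of 75 kinesin transcripts tested 28 fell and 18 rose, where 9028 of all 25759 transcripts fell and 9927 rose. In DMSO embryos 85.6% of Kif3c counts lay on Kif3c-204, which starts 22249 bases downstream of the RefSeq start shown above and has 834 coding bases, against 2388 in the full-length Kif3c-201. It had 0, 1.36 and 13.01 CPM with SR1848, against 51.8, 178 and 506 CPM with DMSO, without overlap (log2 fold change -6.36, edgeR adjusted p = 2.19e-42). The share of all 25759 transcripts without overlap was not computed. The full-length Kif3c-201 averaged 0.407 ± 1.16 against 18.9 ± 10.98 CPM (SD, n = 80 and 50, -5.49, edgeR adjusted p = 2.14e-25). Most of what was counted as Kif3c in DMSO embryos is therefore assigned to a transcript that starts inside the gene and has a shorter coding part.

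Strand matters for this gene, and 44.6% of the 31-base words of Kif3c-204 occur in other genes. The antisense genes 1110002L01Rik and Gm48512 overlap 35.7% and 15.8% of the exon bases of Kif3c-204 and were not analysed here, so reads of the opposite strand cannot be told apart from it. Kif3c-203, a non-coding transcript that shares no exon base with another gene, had 0, 0 and 5.75 CPM with SR1848, against 2.09, 11.3 and 32.7 CPM with DMSO, and 74 of 80 SR1848 embryos were below every DMSO embryo. It fell as well (log2 fold change -4.63, edgeR adjusted p = 1.87e-22).

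The rise of Kif14 lay on transcripts that keep an intron, mostly on Kif14-202, which is annotated with no coding part and starts 1505 bases upstream of the RefSeq start. It held 67.3% of Kif14 counts with SR1848 and 41.2% with DMSO, and had 15.2, 93.8 and 258 CPM with SR1848, against 3.27, 26.05 and 62.5 CPM with DMSO (log2 fold change 1.88, edgeR adjusted p = 6.35e-26). Kif14-207, a scarcer one, averaged 8.28 ± 6.33 against 1.35 ± 1.95 CPM (SD, n = 80 and 50, 6.05-fold higher, edgeR adjusted p = 2.12e-09). The coding transcript Kif14-203 had 3.18, 25.6 and 74.2 CPM with SR1848, against 2.71, 27.4 and 77.9 CPM with DMSO, and did not pass (log2 fold change 0.026, SE 0.157, edgeR adjusted p = 0.888). Under other scalings its value ran from -0.54 to 0.28.

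Kif17 counts lay mostly on Kif17-202 in both groups (79.9% and 80.02%), a transcript annotated as incomplete at its 5′ end that starts 11816 bases upstream of the RefSeq start. It had 38.7, 177 and 489.7 CPM with SR1848, against 12.1, 46.96 and 128 CPM with DMSO (log2 fold change 1.80, edgeR adjusted p = 1.57e-26), and Kif17-201, which starts near the RefSeq start, rose by 1.80 (edgeR adjusted p = 4.46e-21). Both transcripts of Kif17 rose by a like amount.

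Several coding transcripts had larger falls than their gene. Kif23-201 had a log2 fold change of -1.19 (edgeR adjusted p = 1.08e-28) while the partial Kif23-204 had 0.014 and did not pass, and Kif18b-201 had -2.77 while the short non-coding Kif18b-202 rose (0.93), a call lost with RLE factors (0.69). Kif15-201 had a log2 fold change of -2.19 (edgeR adjusted p = 9.81e-06). Kif1b-203, the long form, had -1.79, against -0.44 for Kif1b-201, which held more of the counts and was not called with upper-quartile factors (-0.20). Kifc1 counts lay mostly on Kifc1-206, a fragment of 406 bases that rose (1.15), and the long Kifc1-204 did not pass (0.39). Estimated counts divide reads among transcripts that share exons, so a transcript is less certain than its gene. In the authors' deposited table the log2 fold changes were -6.67 for Kif3c-204 (adjusted p = 6.63e-126 from the authors' DESeq2), 1.65 for Kif14-202, -0.24 for Kif14-203 (adjusted p = 0.184 from the authors' DESeq2), 1.55 for Kif17-202 and -2.92 for Kif11-201.

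**Figure D4:**
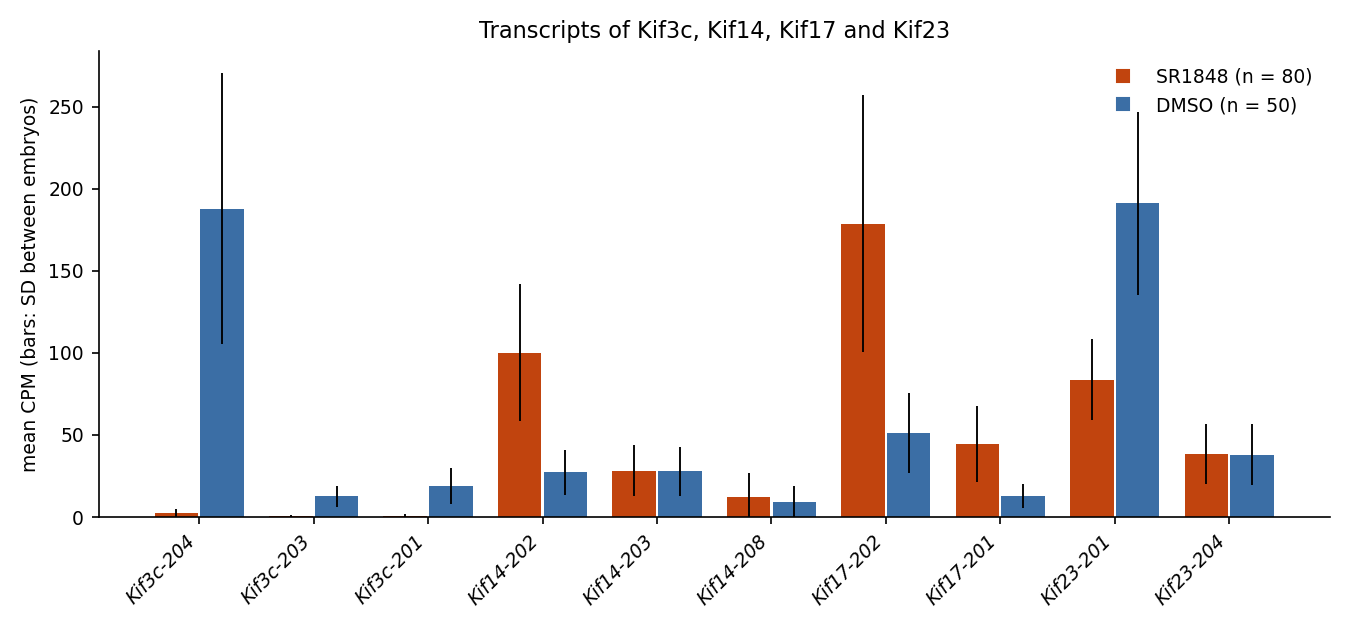
Mean CPM of transcripts of Kif3c, Kif14, Kif17 and Kif23 with SR1848 (left bar, n = 80) and DMSO (right bar, n = 50); lines are SDs between embryos, cut at 0. Kif3c-204 stands at 2.28 against 188 CPM, Kif14-202 at 100.1 against 27.2 CPM, and Kif14-203 and Kif23-204 did not pass.

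Summed over each embryo, the mitotic kinesins had 702, 1052 and 1452 CPM with SR1848 (lowest, median, highest), against 1623, 2257 and 3096 CPM with DMSO. All 80 SR1848 embryos were below every DMSO embryo. Summed transport kinesins had 619, 904 and 2009.7 CPM with SR1848, against 671, 890.1 and 1406 CPM with DMSO, and the groups overlapped nearly whole. The mitotic share of an embryo's kinesin CPM, which does not depend on the scaling between embryos, was 27.2%, 53.3% and 65.1% with SR1848, against 55.8%, 70.8% and 80.5% with DMSO, with 53 of 80 SR1848 embryos below every DMSO embryo. Within the classes, Kif14 made up 7.21%, 13.6% and 27.7% of mitotic CPM with SR1848, against 1.17%, 2.72% and 5.95% with DMSO, without overlap. Kif3c made up 0%, 0.332% and 2.43% of transport CPM with SR1848, against 9.13%, 21.2% and 44.8% with DMSO, also without overlap. Kif22 made up 1.81%, 8.67% and 20.4% of mitotic CPM with SR1848, against 9.46%, 19.5% and 28.9% with DMSO. Shares show unequal change and not that any gene stayed the same.

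**Figure D5:**
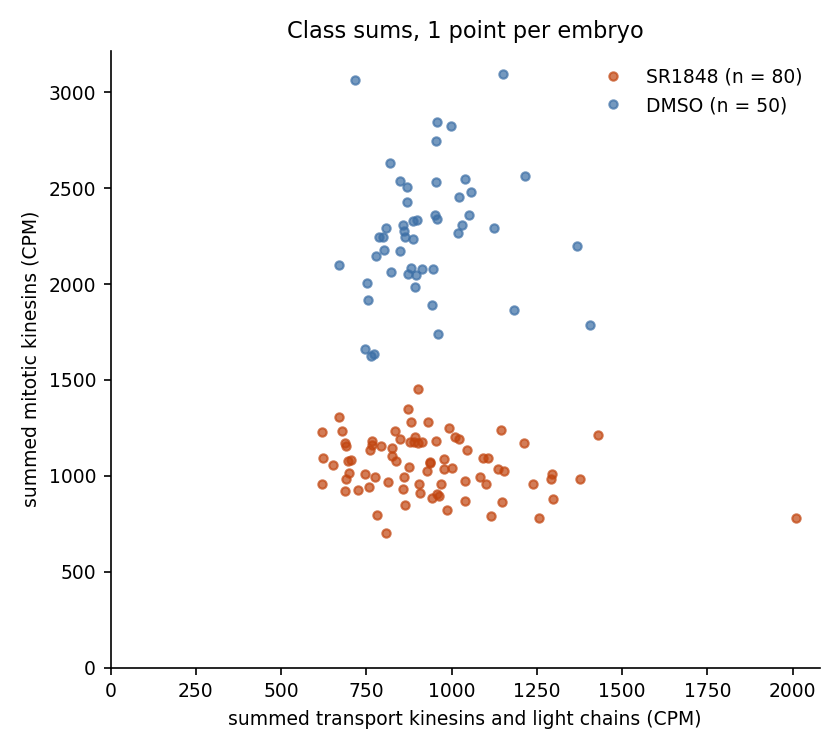
Summed CPM of transport kinesins and light chains (x axis) and of mitotic kinesins (y axis), 1 point per embryo, SR1848 (n = 80) and DMSO (n = 50). The groups part along the mitotic axis, with SR1848 at most 1452 and DMSO at least 1623 CPM, and overlap along the transport axis.

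Ranked by mean level per length, the leading kinesins changed places. In SR1848 embryos Kif5b led with 95.9 ± 40.04 CPM per kb (SD, n = 80), ahead of Kif23 with 73.999 ± 17.8, Kif17 with 70.9 ± 33.1 and Kif22 with 48.2 ± 26.2. In DMSO embryos Kif22 led with 214 ± 59.2 CPM per kb (SD, n = 50), ahead of Kif23 with 122 ± 31.99, Kif20a with 104 ± 25.2 and Kif5b with 95.6 ± 27.2. Neighbours in these orders lay within the larger of their SDs except Kif22 above Kif23 in DMSO embryos. Length here is the count-weighted mean length of the gene's transcripts.

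Embryos of the SR1848 group varied more in most kinesins. The coefficient of variation between embryos was higher with SR1848 in 28 of 36 genes, with a median of 66.1% against 44.5% with DMSO. These were 10 of 15 mitotic kinesins, 13 of 15 transport kinesins and 5 of 6 others. Many of the 28 genes were also lower with SR1848, and lower counts scatter more, a part that was not tested. The same share over all genes tested was not computed, so it cannot be said whether kinesins differ from other genes here. Over all pairs of mitotic kinesins the median Spearman rho was 0.027 across the 80 SR1848 embryos and -0.0038 across the 50 DMSO embryos, and over pairs of transport kinesins 0.036 and 0.028. The highest single values were 0.57 for Kif1b with Kif5b in SR1848 embryos and 0.61 for Kif22 with Kif23 in DMSO embryos, and the lowest were -0.54 for Kif2a with Kif5b and -0.47 for Kif18b with Kif2a. These points share libraries and their scaling and are given as a description.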

How the data were processed

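Single embryos were sequenced as Smart-seq2 libraries, which carry no strand and were counted without molecular identifiers as far as the sources used here say. Per the submitters' processing notes, the tools were kallisto 0.46.1, DESeq2 1.32.0, Trim Galore 0.6.2, bcl2fastq and R 3.5.1, and mm10 and hg19 the builds, with no role or order given. The authors deposited estimated counts per transcript, a table of log2 values equal to log2(count / size factor + 1), which served only for a comparison with the counts, and a table per transcript with a mean signal, log2 fold changes, p-values and a test score from the authors' own DESeq2. The score column was not used. A positive log2 fold change there means higher with SR1848, from the sign of 97.0% of 11259 transcripts in the counts.

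Counts were summed per gene with the gene names of the authors' table (GENCODE M21 for 379 transcripts it left without one) and rounded. Of the counts, 0.734% lay on mouse transcripts with no gene and 0.0258% on entries that are not mouse transcripts, and both were left out. Genes were tested with edgeR 4.0.16 (filterByExpr, TMM, robust quasi-likelihood fit, two-sided, no covariate, Benjamini-Hochberg over 13224 genes, threshold 0.05), in R 4.3.3. The step was tested on simulated data in which few genes changed, evenly up and down, with the same dispersion for all. That setting differs from these data, where 82.1% of genes were called, so it does not test the scaling used here. No 2 embryos agreed within sampling noise. Total counts per embryo set the precision, and floors and counts at 0 cover counting error only. CPM per kb divides by the mean transcript length weighted by counts over all embryos.

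Named with their lowest, median and highest values were kinesins with an adjusted p under 0.05 and a change of at least 2-fold, or a mean of at least 50 CPM, and from each partner list the 3 genes of smallest p and the one of highest CPM. Members and lists were chosen with earlier results of these data known. Alternatives were RLE factors, upper-quartile factors, total counts, factors from 43 oocyte transcripts, no filter, a filter of 5 CPM in 50 embryos, total depth as a covariate, leaving out shallow embryos (1 with SR1848 and 0 with DMSO), the most abundant transcript of each gene, DESeq2 1.42.0, limma-voom (limma 3.58.1) and the embryo number as a block. The test per transcript and the promoter searches other than that for CAAGGNCA were chosen after the data were seen. Control embryos listed in the series' design but not given (6) were not analysed here.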

Additional observations from a re-analysis of the deposited data

How the results depend on the processing

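The counts of mitotic kinesins called lower and called higher stayed within 1.5 times of 10 and 4 in each alternative that gave a value. With oocyte-transcript factors, the counts called higher were 6 for all kinesins, 2 for transport kinesins, 2 for spindle partners and 3 for tubulins, and 8 transport kinesins were called lower. With limma-voom 7 transport kinesins were called lower. Over all 13224 genes, oocyte-transcript factors gave 6160 lower and 3597 higher, and limma-voom 5318 lower and 5522 higher. The following log2 fold changes, all but that of Kif3b and Kif9 uncalled with TMM, took the other sign, and the cause was not tested. With oocyte-transcript factors they were -0.044 for Kif3b, -0.44 for Kif5b, -0.35 for Klc1, -0.54 for Kif14-203, -0.0038 for Kif14-208, -0.52 for Kif23-204, -0.021 for Kif3a-203, -0.71 for Kif9-201 and -0.060 for Kifc1-204. With RLE factors they were -0.10 for Kif5b, -0.043 for Klc1, -0.24 for Kif14-203, -0.24 for Kif23-204 and -0.19 for Kif9-201, and with total counts -0.18, -0.14, -0.11, -0.12 and -0.076 for the same 5. Upper-quartile factors gave 0.20 for Kif2a and 0.21 for Kif21a, the filter of 5 CPM gave 0.048 for Kif2a, no filter gave -0.035 for Kif5b, and leaving out the shallow embryo gave 0.0081 for Kif21a. The most abundant transcript alone gave 0.53 for Kif3a, -0.11 for Kif5b and 0.16 for Kif9. DESeq2 gave -0.10 for Kif5b and -0.043 for Klc1, and limma-voom -0.032 and -0.56. Kif26b, Kif27 and Kif28 were also not called with limma-voom. Low counts limit the kinesins under a median of about 5 CPM, where many embryos were at 0.

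Embryo numbers recur in both groups. Of 50 same-numbered pairs 2 correlated above 0.1 in their deviations from the group means (median r 0.0189), and 1 embryo correlated best with its own number, so the numbers were not taken as pairs. The fit with the embryo number as a block used only the 50 numbers found in both groups. SR1848 embryos with other numbers were left out, so both the block and the embryos differ from the main fit. The block fit called 16 kinesins lower and 9 higher. Over all 13224 genes it called 5043 lower and 5444 higher. Kifc3 (0.39), Kif26b (0.85), Kif27 (0.20), Kif28 (0.73) and Dynll1 (-0.20) were not called, and Kif5b was -0.12, Klc1 -0.61 and Klc2 -0.029.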
